A study of Sus scrofa with 10 samples.

Results

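RNA-seq assemblies of a tissue contain transcribed loci that match no annotated gene, and some of them lie next to a protein-coding gene. Such neighbours were taken from the locus table of pig ovaries. The loci had no transcript type, were placed on the + or - strand, overlapped no protein-coding locus on either strand and lay within 10 kb of one on the same chromosome. In total, 766 of the 43499 loci met this rule, out of 20536 loci with no transcript type, of which 11956 carried a strand. Of the other stranded ones, 7157 overlapped a coding locus on the opposite strand only, 3233 overlapped one on the same strand, and 800 lay further than 10 kb away. Each of the 766 loci was paired with the nearest coding gene and called upstream or downstream of it by the strand of that gene.

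The samples were ovaries of 10 gilts, 5 of a control group (labelled untreated) and 5 of a group treated with rpFSH, a recombinant pig follicle-stimulating hormone that the labels spell fpFSH. According to the methods, all gilts had the same genetic background and first received altrenogest, a progestogen that holds back the cycle. It was started at 210 days of age, given for 18 days in doses of 20 mg a day, and stopped for 2 days. Treatment was then 1000 IU of rpFSH, and controls were given saline instead. The age at collection was 234 days, surface follicles had been taken off before freezing, and each pig gave 1 library. The deposited counts summed to between 65166187 and 75114003 in the controls and to between 64873797 and 74656992 in the rpFSH pigs. A count of 3, taken as the limit that a count of 0 allows, corresponds to between 0.0399 and 0.0462 CPM, which covers counting error only.

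Loci beside coding genes can be the continuation of a gene past its annotated end, a transcript that starts from a shared promoter in the other direction, or a separate noncoding transcript. FSH acts on the granulosa cells of the follicle, where it drives growth of the follicle and estrogen synthesis. An ovary sample also holds theca, stroma, vessels, muscle and surface epithelium, and it can carry tissue of the oviduct, whose lining has ciliated and secretory cells.

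MSTRG.30735 at chr7:40682546-40684973 (Sscrofa11.1, + strand) lies beside CLIC5. This lncRNA was chosen for qRT-PCR in the study, which reports that the fold changes of the chosen transcripts matched those of RNA-seq. Its primers are shown because they are the only sequences of these loci in the sources used here, and they are written in lower case throughout.
MSTRG.30735 forward primer: gcataggtaattcccacctcca
MSTRG.30735 reverse primer: tcttgctgagtgttttcctct

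The strand of the loci has a limit that bears on the results. In 8 places, 2 of the 766 loci had the same start and end on opposite strands, which gave 80 pairs of values over the 10 pigs. In 51 of the 80 (63.8%) the FPKM of both loci lay within 1% of each other, in 25 (31.2%) 1 locus was at the floor of the table while the other was not, and in 4 they differed otherwise. Over all 35 such pairs of the table, 183 of 350 values lay within 1% and 105 had 1 locus at the floor. The pair beside IGF1, which encodes a growth factor of the follicle, lay at chr5:81848217-81857912. Its + strand locus MSTRG.25933 had 4.32, 3.63, 3.16, 4.72 and 11.0 FPKM in controls 1 to 5 and 2.64, 8.36, 3.58, 4.04 and 15.4 in rpFSH pigs 1 to 5. Its - strand locus MSTRG.25934 had 4.32, 3.63, 3.16, 4.72 and 0.0001 FPKM in the controls and 2.64, 0.0001, 0.0001, 4.04 and 0.779 in the rpFSH pigs. Both loci had the same value in 6 pigs, and in control 5 and rpFSH pigs 2 and 3 the - strand locus was at the floor, which stands for a count of 0. The study's methods describe a library that marks the strand, while the labels name no such step. Reads of opposite strands therefore cannot be told apart at these places, and "same strand" and "opposite strand" mean the strand that the table gives. In all, 205 of the 766 loci (26.8%) overlapped a stranded locus on the opposite strand, and 520 overlapped no other locus of the table.

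**Figure D1:**
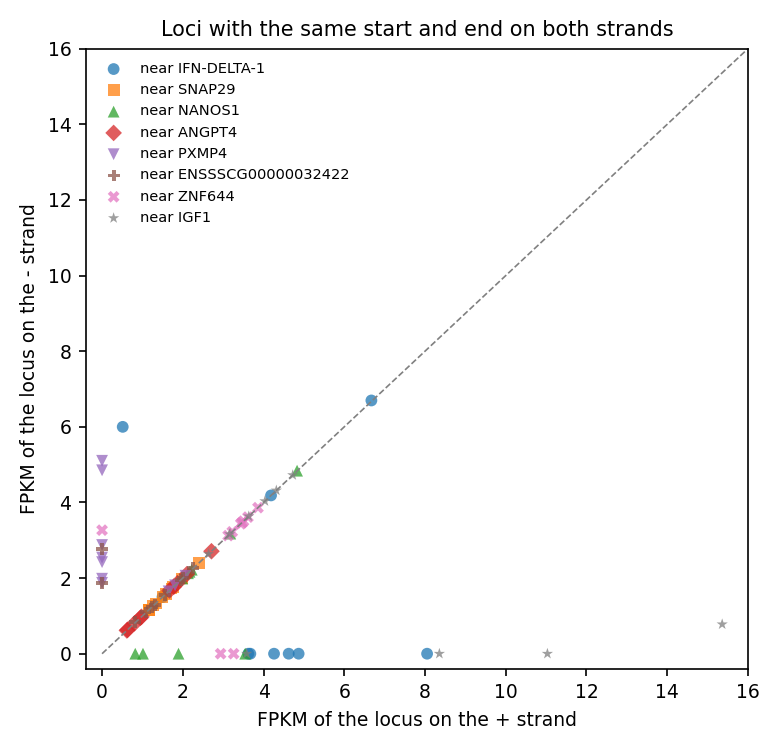
FPKM of the + strand locus (x axis) and of the - strand locus (y axis) for the 8 pairs of unannotated loci with the same start and end, 1 point per pair and pig; the dashed line marks equal values. Of the 80 points, 51 lie within 1% of equality and 25 have 1 locus at the floor.

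Control 2 and control 5 stood apart from the other pigs in epithelial markers. Over all tested loci, the mean r with the other pigs (log2 CPM) was lowest in control 2 (0.905), followed by control 5 (0.920) and rpFSH pig 1 (0.922), and between 0.930 and 0.943 in the others. All 10 markers of ciliated epithelium were measured, none had a mean below 0.1 FPKM, and their summed level was 5.84, 40.2, 7.31, 7.51 and 76.9 FPKM in controls 1 to 5 and 3.04, 4.75, 6.27, 5.54 and 5.34 in rpFSH pigs 1 to 5. HYDIN, a protein of the ciliary axoneme, was the most abundant of them, with a mean of 2.52 FPKM. FOXJ1, the transcription factor that defines these cells, had 0.0618, 5.82, 0.0421, 0.123 and 14.1 FPKM in the controls and 0.0001, 0.0488, 0.212, 0.0262 and 0.0001 in the rpFSH pigs. Controls 2 and 5 were the highest pigs in the summed level, and 8 of the 10 markers were downregulated in the rpFSH group by the rule used for the loci. Of 7 markers of secretory epithelium, 5 were measured and none had a mean below 0.1 FPKM. Their sum was 6.59, 44.4, 3.11, 5.07 and 108 FPKM in the controls and between 4.61 and 5.60 in the rpFSH pigs. The most abundant was the locus of WDR77 and OVGP1, the latter of which encodes oviductin, and all 5 were downregulated. No flanking locus was paired with a gene of either list, although MSTRG.4097, paired with FAM219A, lay over the RefSeq gene of the ciliated marker DNAI1.

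Other cell types differed between pigs as well. Smooth muscle markers, all 6 measured and led by ACTA2, summed to 2194 FPKM in control 5 and to between 66.2 and 499.9 in the other pigs. Granulosa and luteal markers, 10 of 12 measured and led by CYP11A1, the first enzyme of steroid synthesis, summed to 2326 FPKM in control 2, to 1429 in rpFSH pig 1 and to between 26.0 and 348 in the others. In control 2 this sum was carried by CYP11A1 (1758 FPKM) and STAR (532), whereas the granulosa genes INHA (1.34), FSHR (0.375) and CYP19A1 (0.110) were lowest there of all 10 pigs. The labelled tissue had its defining markers in every pig: oocyte markers (8 of 8 measured, GDF9 highest) summed to between 5.28 and 22.3 FPKM, theca markers (5 of 5, INSL3 highest) to between 9.56 and 246 and ovarian stroma markers (8 of 8, the locus of COL3A1 highest) to between 429 and 1794. In such bulk samples, fewer cells of a type and less RNA per cell cannot be told apart.

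The 766 loci lay beside 654 coding genes. Of these genes, 556 had 1 such locus, 86 had 2, 10 had 3 and 2, ENSSSCG00000006704 and ENSSSCG00000032308, had 4. By position, 275 loci (35.9%) were downstream on the same strand, 171 (22.3%) downstream on the opposite strand, 162 (21.1%) upstream on the opposite strand, and 158 (20.6%) upstream on the same strand. The gap between locus and gene was 882 bp in the median, and 395 loci (51.6%) lay within 1 kb. The median gap was 560 bp upstream on the opposite strand, the head-to-head arrangement, 727 bp downstream on the same strand, 1066 bp downstream on the opposite strand and 1800 bp upstream on the same strand. Among the 520 loci that overlapped no other locus, a restriction chosen after seeing the data, 40.0% were downstream on the same strand.

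**Figure D2:**
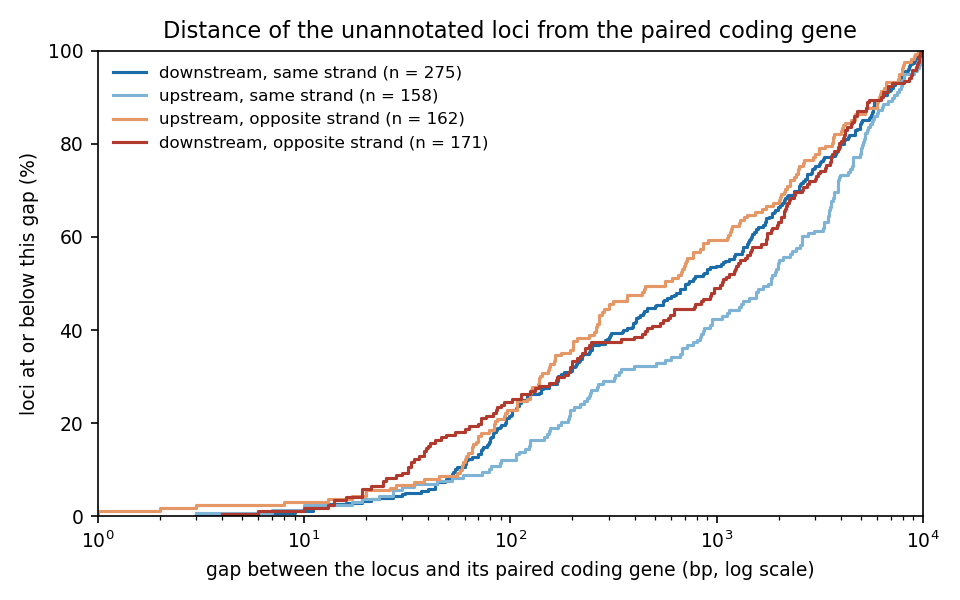
Share of loci (y axis, %) at or below a given gap to the paired coding gene (x axis, bp, log scale), with 1 line for each of the 4 positions. At 100 bp and at 1 kb the line for upstream loci on the same strand lies lowest, at 12.0% and 42.4%.

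The ratio of count to FPKM reflects the length over which a locus was counted. It was scaled so that the most frequent ratio of this length to the span is 1, and the share of loci near 1 depends in part on that scaling. In 484 of the 692 loci with a mean count of at least 50 (69.9%) this length covered at least 95% of the span. The share was 79.0% downstream on the same strand, 76.3% downstream on the opposite strand, 63.8% upstream on the same strand and 53.0% upstream on the opposite strand. The span was 4175 bp in the median and ran from 201 to 370416 bp. A gene name was carried by 221 loci in the table, and for 169 it was the name of the paired gene. Of those 169, 153 were downstream on the same strand.

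A RefSeq annotation of the same build covered many of the loci. As a check of the build, 99.8% of 12561 coding loci matched by symbol overlapped the RefSeq gene of that symbol. Of the 766 loci, 225 (29.4%) overlapped the RefSeq gene with the symbol of the paired gene, 129 (16.8%) another RefSeq coding gene and 131 (17.1%) a RefSeq lncRNA gene. A further 11 overlapped another kind of gene, and 270 (35.2%) overlapped none. Downstream on the same strand, 104 of 275 (37.8%) overlapped the RefSeq gene of their pair. Upstream on the opposite strand, 53 of 162 (32.7%) overlapped a RefSeq lncRNA gene, the largest share of that kind among the 4 positions.

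Most of the loci lay in a narrow range of level. Over the 766 loci the mean FPKM was 1.53 in the median, 626 loci (81.7%) lay between 0.5 and 3, and 36 exceeded 5. A count above 0 was found in every pig in 676 loci (88.3%), and 752 (98.2%) had a mean count of at least 10 and were tested. The median FPKM per pig was 1.58 ± 0.125 in the controls and 1.45 ± 0.0557 in the rpFSH pigs (SD, n = 5 each), and the groups overlapped. In each of the 10 pigs the median lay above that of the 800 stranded loci further than 10 kb from a coding gene, by 0.477 FPKM on average (SD of the difference 0.0941). It lay below that of the paired coding genes in each pig, and above that of all protein-coding loci in 8 of 10 pigs, by 0.0770 FPKM on average over the 10 (SD of the difference 0.124). These medians include loci with a count of 0, so the last difference does not compare expressed loci alone. In a pig, between 3393 and 3904 of the 19972 coding loci had a count of 0, and between 34 and 40 of the 766 flanking loci. Together the 766 loci held between 1.00% and 1.09% of the counts of a pig.

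**Figure D3:**
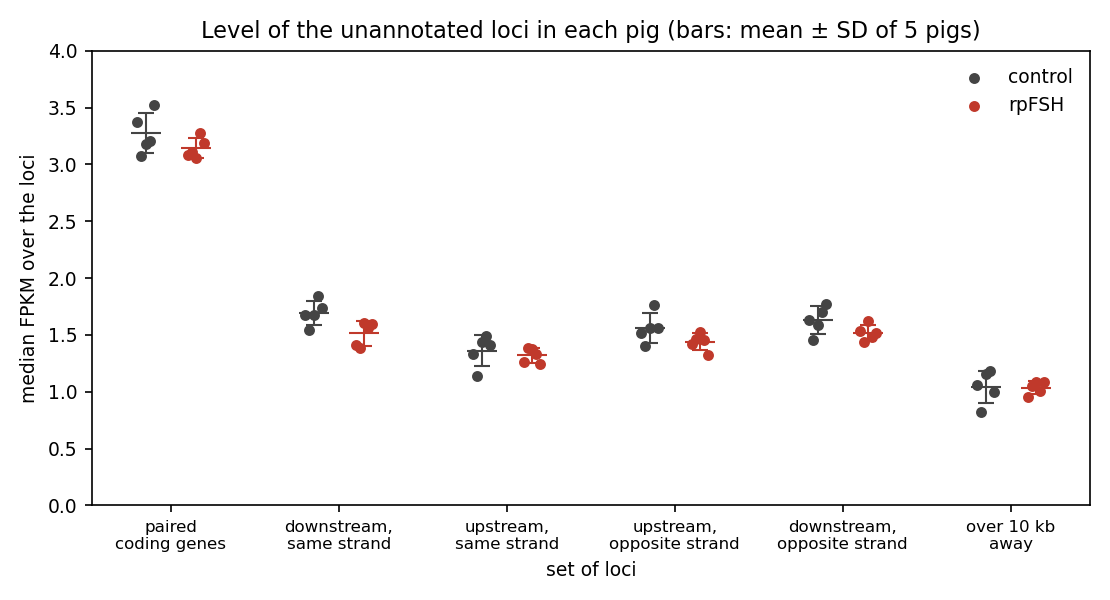
Median FPKM over the loci of each set (y axis) for each pig, control in grey and rpFSH in red, with the mean ± SD of 5 pigs as bars. The flanking loci lie below the paired coding genes and above the loci further than 10 kb away in every pig.

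Examples of loci above this level follow. MSTRG.24956 at chr5:21506570-21507832, upstream of ZC3H10 (a zinc finger protein gene) by 396 bp and over its RefSeq gene, had 682, 534, 565, 687 and 695 FPKM in controls 1 to 5 and 726, 674, 613, 575 and 575 in rpFSH pigs 1 to 5. The groups overlapped, and the mean was 325 times that of ZC3H10 itself. The counted length of MSTRG.24956 was 38.6% of its span, so this level describes a part of it. Its r with ZC3H10 was -0.253 (rho -0.00606, 10 pigs). MSTRG.30340, 2506 bp downstream of the heat-shock gene HSP70.2, held 2 annotated small RNA loci (RF00276 and RF00282) and had 36.7 ± 12.4 FPKM in the controls and 30.6 ± 9.32 in the rpFSH pigs (SD, n = 5 each). It belonged to the loci over another RefSeq coding gene, as HSPA1L and LOC100624113 overlapped it. In all, 23 of the 766 loci overlapped an annotated small RNA or other noncoding locus.

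Other loci were among the highest of their position. MSTRG.30656, 19 bp downstream of UBR2 (a ubiquitin ligase gene) on the opposite strand, had 18.4, 17.7, 16.8, 18.9 and 14.7 FPKM in the controls and 15.9, 13.4, 13.2, 11.9 and 15.2 in the rpFSH pigs. The groups overlapped, with control 5 below rpFSH pigs 1 and 5 (log2 fold change -0.28, SE 0.14, edgeR, Benjamini-Hochberg adjusted p = 0.869). MSTRG.23788, 21 bp downstream of ENSSSCG00000036469 on the same strand, had 13.2 ± 7.68 FPKM in the controls and 13.2 ± 6.43 in the rpFSH pigs (SD, n = 5 each). It lay over another RefSeq coding gene, LOC110255273. Upstream on the opposite strand, MSTRG.32038 beside GLRX5, a gene of iron-sulfur cluster assembly, had 7.64 ± 1.14 FPKM in the controls and 5.56 ± 1.39 in the rpFSH pigs (SD, n = 5 each). It overlapped the small RNA locus RF00231, and its counted length was 22.3% of its span. MSTRG.23844 beside ENSSSCG00000006704, over a locus of the U1 spliceosomal RNA family RF00003, had 5.89 ± 1.26 FPKM in the controls and 4.74 ± 1.56 in the rpFSH pigs (SD, n = 5 each). None of these 4 loci passed the rule for differential expression (DE) that is applied to the groups.

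Loci and paired genes varied together over the pigs to a degree that differed by position. Over 731 pairs with a mean count of at least 10 on both sides, Pearson's r of log2(FPKM + 1) over the 10 pigs was 0.492 in the median, and Spearman's rho was 0.430. These values are descriptions, since all pairs share the same 10 pigs. By position, the median r was 0.664 downstream on the same strand (262 pairs), 0.485 downstream on the opposite strand (161), 0.421 upstream on the same strand (151) and 0.285 upstream on the opposite strand (157). An r over 0.9 was found in 44 of 262 pairs (16.8%) downstream on the same strand and in 19 of 161 (11.8%) downstream on the opposite strand. Upstream, it was found in 8 of 151 (5.30%) on the same strand and in 8 of 157 (5.10%) on the opposite strand. Among loci that overlapped no other locus, the medians were 0.691, 0.561, 0.497 and 0.294 in the same order. Without controls 2 and 5 they were 0.587, 0.493, 0.363 and 0.262.

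The coding gene on the other side of the locus gave lower values. In 635 pairs where that gene was also counted, the median r was 0.185 with it and 0.473 with the paired gene, although it lay at a median of 20671 bp, so that distance and side cannot be told apart. Downstream on the same strand, the median r was 0.665 for gaps up to 100 bp (58 pairs) and 0.690 for gaps over 5000 bp (39 pairs). Upstream on the same strand it was 0.524 up to 100 bp (19 pairs) and 0.142 over 5000 bp (33 pairs). Upstream on the opposite strand these medians were 0.233 (37 pairs) and 0.450 (20 pairs), and downstream on the opposite strand 0.598 (40 pairs) and 0.468 (19 pairs). With gaps of 100 to 1000 bp and of 1000 to 5000 bp in between, no position had medians that changed in 1 direction throughout. Loci over the RefSeq gene of their pair had a median r of 0.620 (219 pairs), and loci over no RefSeq gene 0.446 (257 pairs). The median was 0.378 over a RefSeq lncRNA gene (124 pairs), 0.353 over another RefSeq coding gene (122 pairs) and -0.0145 over another kind of gene (9 pairs). Differences between these medians were not tested.

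**Figure D4:**
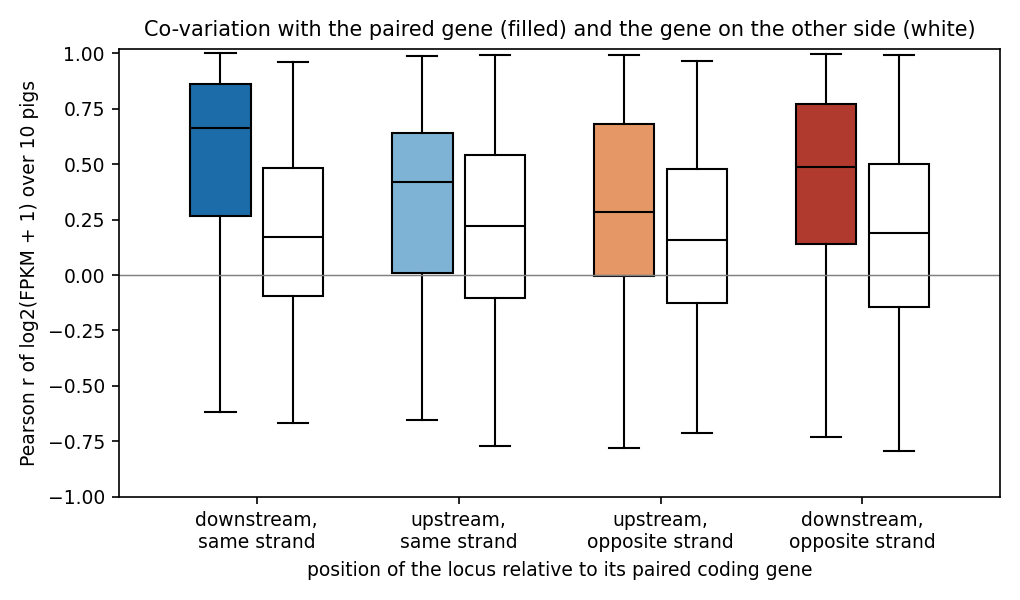
Pearson's r of log2(FPKM + 1) over 10 pigs (y axis) between each locus and its paired coding gene (filled boxes) or the coding gene on its other side (white boxes), by position; boxes span the quartiles with the median as a line, whiskers reach 1.5 times the box. The filled medians run from 0.664 downstream on the same strand to 0.285 upstream on the opposite strand.

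The comparison of the groups asks which loci responded to rpFSH. DE meant an unadjusted P under 0.05 with a log2 fold change above 1 or below -1 in edgeR's two-sided quasi-likelihood test on the counts. Of 752 tested loci, 5 (0.665%) were upregulated, where 1.06% of all 35720 tested loci were, 0.338% of the coding loci and 4.13% of the stranded unannotated loci further than 10 kb from a coding gene. Another 27 (3.59%) were downregulated, beside 2.37% of all loci, 2.71% of coding loci and 3.74% of those further away. In both directions together, 32 loci (4.26%) passed, beside 3.42%, 3.05% and 7.87% of the same sets. The total share was thus near that of the whole table, and differences between the sets were not tested.

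No locus had an adjusted p under 0.05 in edgeR with Benjamini-Hochberg adjustment over all tested loci, the smallest being 0.853. In edgeR, 49 loci had an unadjusted P under 0.05 (6.52%), beside 5.67% of all loci, 4.71% of coding loci and 9.55% of those further away. DESeq2 gave 4 loci with an adjusted p under 0.05, beside CCDC175, EHF, TMEM160 and WNT2, and limma gave 0 with either pseudocount. The share of all loci past this limit in DESeq2 is not given here, so the 4 loci cannot be set against the whole table. By the DE rule, DESeq2 had 0.931% of the flanking loci upregulated and 2.53% downregulated, beside 1.14% and 2.76% of all loci. On simulated counts, more of the adjusted calls of DESeq2 than of the other tools were unchanged loci. The median log2 fold change was -0.065 over the 752 loci and -0.0041 over all loci tested. FPKM of all rpFSH pigs lay above all controls in 1 locus (0.133%, beside 0.241% of all) and below all controls in 5 (0.665%, beside 0.521%). The locus above was MSTRG.16732 beside WNT2, and 1 of those below was MSTRG.27522 beside TMEM160. The other 4 did not pass the rule and were chosen for naming after their values were seen: MSTRG.9661 beside SPICE1, MSTRG.20102 beside RAC1, MSTRG.23218 beside ARMC1 and MSTRG.27570 beside SELENOW. Their log2 fold changes were -0.70, -0.79, -0.49 and -0.65.

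Most of the downregulated loci were highest in control 2 or control 5. Of the 27, 25 had their highest value in 1 of these pigs, and in 19 both were the highest pigs, an order found in 52 of the 752 tested loci. A downregulated locus is chosen for high controls, so the selection fixes part of this difference. The share among all downregulated loci of the table is not given here. Over the 752 tested loci, control 2 was the highest pig in 88 and control 5 in 114. Without both pigs, 14 loci were upregulated and 5 downregulated, and 4 of the 27 remained downregulated. The whole table turned in the same way: 1.06% of all tested loci were upregulated and 2.37% downregulated with all pigs, and 1.76% and 1.17% without these 2. Without control 2 alone the numbers were 12 and 12, and without rpFSH pig 5 they were 5 and 16. Of all tested loci, 1.35% and 1.83% passed upward and downward without control 2, and 1.01% and 1.90% without rpFSH pig 5. The upregulated loci numbered 8 without control 4, and 3 without rpFSH pig 3 or without rpFSH pig 4, where 1.04%, 0.985% and 1.11% of all tested loci were upregulated. Of the 5 upregulated loci, all but MSTRG.11986 beside CPEB3 (0.97) remained so without controls 2 and 5. The part of the ciliated and secretory epithelium markers, high in controls 2 and 5, was not tested. Among the 516 tested loci that overlapped no other locus, 4 were upregulated and 19 downregulated, where 1.06% and 2.37% of all tested loci were.

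The 4 loci that stayed downregulated without controls 2 and 5 were MSTRG.27522 beside TMEM160, MSTRG.24019 beside KCND3, MSTRG.27302 beside PLEKHG2 and MSTRG.36995 beside ENSSSCG00000038192. The last 2 were chosen for naming after their values were seen. MSTRG.27302 lay 1318 bp upstream of PLEKHG2 on the same strand and over the RefSeq tRNA gene TRNAI-UAU. It had 0.865, 0.148, 1.3004, 2.10 and 1.59 FPKM in the controls and 0.199, 0.307, 0.308, 0.0830 and 0.0480 in the rpFSH pigs. The groups overlapped through control 2, and counts ran from 2 to 55 (log2 fold change -2.34, SE 0.70). MSTRG.36995, 199 bp downstream of its gene on the opposite strand, is the only 1 of the 766 loci on chromosome Y, while all animals were gilts. Its counted length was 0.448% of its span of 179667 bp, which holds a RefSeq lncRNA gene and a small RNA locus (RF00100), so its level describes a small stretch and the source of these reads was not tested. It had 2.13, 0.789, 1.20, 1.96 and 2.25 FPKM in the controls and 0.784, 0.816, 1.22, 0.599 and 0.317 in the rpFSH pigs. The groups overlapped (log2 fold change -1.10, SE 0.40), and the log2 fold change was inside the limit without control 1 (-0.997), control 5 (-0.97) or rpFSH pig 5 (-0.90). With the replicate number as a block, neither MSTRG.27302 (-2.21) nor MSTRG.36995 (-1.12) passed.

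A downregulated paired gene was found mainly downstream on the same strand. Among downregulated loci whose paired gene was tested, 7 of 10 had one there, against 3 of 16 in the other positions. The paired gene was tested for 4 of the 5 upregulated loci, and none of these genes was upregulated. Among all 745 loci whose paired gene was tested, 16 had a downregulated and 8 an upregulated one. Whether these shares differ was not tested. The 3 downregulated loci of the other positions were MSTRG.30735 beside CLIC5 and, chosen for naming after their values were seen, MSTRG.19008 beside SV2C and MSTRG.23295 beside the locus of ENSSSCG00000031906 and SOX17. MSTRG.19008 had 0.990, 8.88, 3.34, 1.73 and 1.5003 FPKM in the controls and 1.17, 1.59, 0.226, 1.19 and 1.15 in the rpFSH pigs. It was highest in control 2, and the groups overlapped (log2 fold change -1.63, SE 0.68). Its call was lost without control 2 (-0.76), control 3 (-1.64) or rpFSH pig 1 (-1.68), 3 (-1.37), 4 (-1.66) or 5 (-1.65). It was also lost without controls 2 and 5 (-0.85), with the replicate block (-1.30) and under limma with either pseudocount (-1.63). MSTRG.23295 had 0.358, 2.89, 0.397, 0.267 and 4.15 FPKM in the controls and 0.208, 0.209, 0.598, 0.410 and 0.145 in the rpFSH pigs. It was highest in controls 2 and 5 (log2 fold change -2.36, SE 0.85), and its call was lost without control 5 (-1.68) or without controls 2 and 5 (-0.068), with the block (-1.46) and under limma with either pseudocount (-2.36).

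Over all 731 pairs, 66.1% had log2 fold changes of the same sign. The share was 71.0% downstream on the same strand, 66.5% downstream on the opposite strand, 62.4% upstream on the opposite strand and 60.9% upstream on the same strand.

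Among the upregulated loci, MSTRG.16732 at chr18:28945592-28946250 lay 247 bp upstream of WNT2, a gene of a secreted Wnt ligand, on the same strand and over its RefSeq gene. It had 1.07, 0.367, 1.14, 0.846 and 1.08 FPKM in controls 1 to 5 and 1.43, 1.52, 2.86, 2.67 and 3.02 in rpFSH pigs 1 to 5. Every rpFSH pig was above every control, the only locus of the 752 with that order. With all pigs it had a log2 fold change of 1.38 (SE 0.35, edgeR, Benjamini-Hochberg adjusted p = 0.853), and the call held when any 1 pig was left out. WNT2 itself had 3.02 ± 1.52 FPKM in the controls and 5.63 ± 3.34 in the rpFSH pigs (SD, n = 5 each), with a log2 fold change of 0.93 that did not pass the rule. Over the 10 pigs, r between locus and gene was 0.845 (rho 0.770).

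In the other upregulated loci the groups overlapped. MSTRG.11986, 2735 bp downstream of CPEB3 (an RNA-binding regulator of translation) on the opposite strand, had 0.732, 0.471, 0.988, 0.969 and 0.983 FPKM in the controls and 0.964, 1.22, 1.95, 1.31 and 3.02 in the rpFSH pigs. Controls 3, 4 and 5 were just above rpFSH pig 1 (log2 fold change 1.06, SE 0.32), and the log2 fold change was under the limit without control 2 (0.93) or without rpFSH pig 5 (0.76), and with the replicate block (0.99). MSTRG.26394, 7132 bp downstream of ZDHHC7 (a protein palmitoyltransferase) on the same strand and over a RefSeq lncRNA gene, had 0.948, 0.305, 0.422, 0.646 and 0.4999 FPKM in the controls and 0.912, 1.08, 2.82, 1.305 and 0.726 in the rpFSH pigs. Its highest pig was rpFSH pig 3 (log2 fold change 1.32, SE 0.40), without which the log2 fold change was 0.89 and did not pass. CPEB3 and ZDHHC7 had log2 fold changes of -0.20 and -0.028.

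MSTRG.24924, 9020 bp downstream of ENSSSCG00000031260 on the same strand, had 0.0001, 0.0715, 0.0800, 0.0001 and 0.548 FPKM in the controls and 0.0001, 1.96, 1.60, 2.19 and 1.46 in the rpFSH pigs. It was high in 4 rpFSH pigs and at the floor in rpFSH pig 1, with counts between 0 and 111 (log2 fold change 3.33, SE 1.38). Its log2 fold change was 5.10 without control 5 and 5.65 without controls 2 and 5. MSTRG.35670, 260 bp upstream of ENSSSCG00000038506 on the opposite strand, had 0.418, 0.847, 0.509, 0.0963 and 0.417 FPKM in the controls and 0.651, 0.878, 1.66, 1.39 and 0.612 in the rpFSH pigs. Control 2 was above rpFSH pigs 1 and 5, and the locus overlapped another locus on the opposite strand (log2 fold change 1.18, SE 0.51). The call of MSTRG.24924 was lost when any pig other than control 5 and rpFSH pig 1 was left out (log2 fold change between 3.01 and 3.34 there). That of MSTRG.35670 was lost without control 1, 3, 4 or 5 (1.14, 1.20, 0.91 and 1.14) and without rpFSH pig 2, 3 or 4 (1.22, 0.95 and 1.05), and with the replicate block (1.29). In edgeR with Benjamini-Hochberg adjustment, the adjusted p was 0.853 for MSTRG.11986, MSTRG.26394 and MSTRG.24924, and 0.860 for MSTRG.35670.

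**Figure D5:**
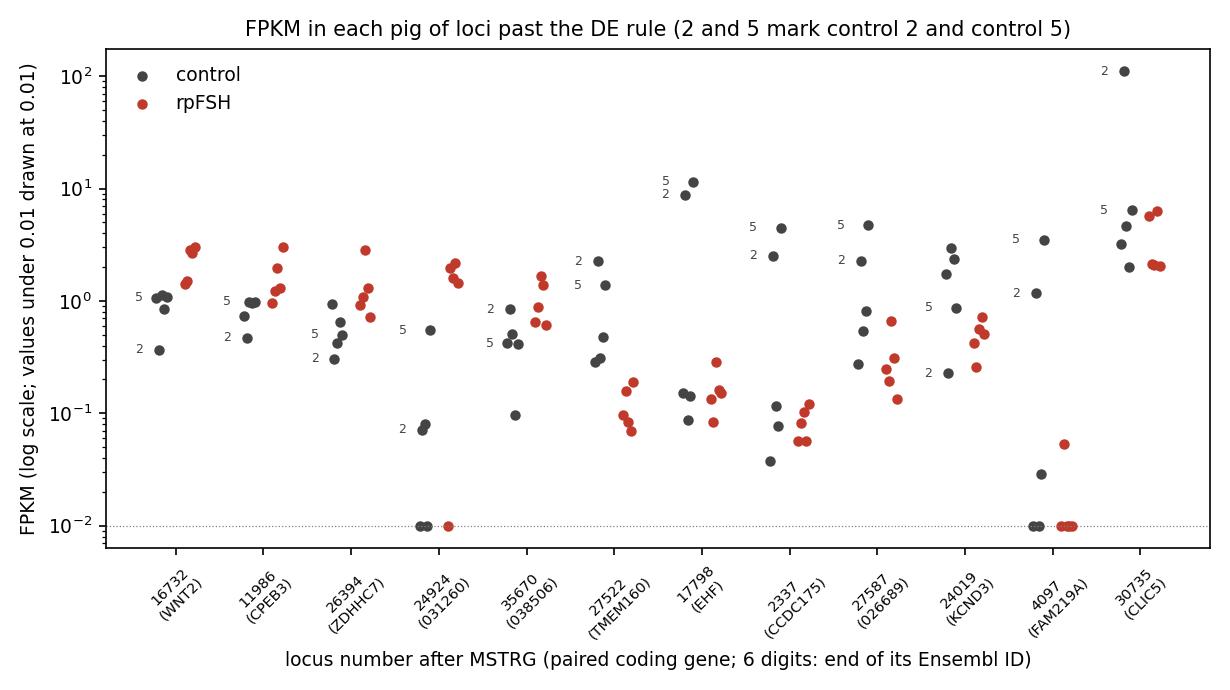
FPKM in each pig (y axis, log scale, values under 0.01 drawn at 0.01) of 12 loci past the DE rule (the 5 upregulated, the 6 downregulated of smallest P with a mean count of at least 20, and MSTRG.30735), control in grey and rpFSH in red; small 2 and 5 mark controls 2 and 5. In MSTRG.16732 every rpFSH pig lies above every control, and in MSTRG.17798, MSTRG.2337, MSTRG.27587 and MSTRG.4097 controls 2 and 5 are the highest pigs.

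Among the downregulated loci, MSTRG.27522 at chr6:52881749-52884366, 4559 bp upstream of TMEM160 on the same strand and over no RefSeq gene, had the smallest P. It had 0.288, 2.25, 0.312, 0.482 and 1.38 FPKM in the controls and 0.0962, 0.159, 0.0844, 0.0702 and 0.191 in the rpFSH pigs. Every rpFSH pig was below every control, with controls 2 and 5 the highest. With all pigs it had a log2 fold change of -2.95 (SE 0.67, edgeR, Benjamini-Hochberg adjusted p = 0.853). The call held under every alternative run, and without controls 2 and 5 the log2 fold change was -1.50. TMEM160 had a log2 fold change of -0.47 and did not pass the rule.

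Some loci just downstream of their gene were high in controls 2 and 5 together with it. MSTRG.17798 at chr2:26285299-26290089, 27 bp downstream of EHF, which encodes a transcription factor of epithelial cells, had 0.151, 8.85, 0.0871, 0.143 and 11.5 FPKM in the controls and 0.135, 0.0842, 0.288, 0.160 and 0.152 in the rpFSH pigs. EHF itself had 0.0556, 8.06, 0.0271, 0.264 and 9.93 FPKM in the controls and between 0.0333 and 0.245 in the rpFSH pigs, and r over the 10 pigs was 0.998 (rho 0.830). MSTRG.2337, 121 bp downstream of CCDC175, had 0.0375, 2.53, 0.115, 0.0768 and 4.47 FPKM in the controls and 0.0565, 0.0815, 0.102, 0.0573 and 0.122 in the rpFSH pigs. Apart from controls 2 and 5, the groups overlapped in both loci. The log2 fold change was -4.67 for MSTRG.17798 (SE 1.43) and -4.10 for MSTRG.2337 (SE 1.28), and without controls 2 and 5 it turned to 0.42 and 0.19. Both calls were also lost with all pigs under limma with either pseudocount (-4.66 and -4.11) and with the replicate number as a block (-1.69 and -1.80). MSTRG.27587, 48 bp downstream of ENSSSCG00000026689, had 0.272, 2.27, 0.541, 0.822 and 4.73 FPKM in the controls and 0.250, 0.194, 0.665, 0.309 and 0.134 in the rpFSH pigs. Controls 2 and 5 were again highest (log2 fold change -2.41, SE 0.78), and the call was lost without them (-0.72) and with the block (-1.80). In edgeR with Benjamini-Hochberg adjustment, the adjusted p was 0.853 for each of these 3 loci, and all 3 paired genes were downregulated by the same rule.

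Other downregulated loci were paired with a gene that did not pass the rule. MSTRG.4097, 261 bp upstream of FAM219A on the opposite strand, lay over the RefSeq gene DNAI1, a dynein chain of motile cilia. It had 0.0001, 1.17, 0.0001, 0.0288 and 3.52 FPKM in the controls and 0.0001, 0.0538, 0.0001, 0.0001 and 0.0001 in the rpFSH pigs. Controls 2 and 5 were the pigs clearly above the floor (log2 fold change -5.93, SE 2.04), the log2 fold change became 0.27 without them, and the call was lost without control 5 alone (-4.37). It was also lost under limma with either pseudocount (-6.44). FAM219A had a log2 fold change of -0.041. MSTRG.24019, 7634 bp upstream of the potassium channel gene KCND3 on the opposite strand, had 1.73, 0.228, 2.97, 2.36 and 0.873 FPKM in the controls and 0.422, 0.259, 0.567, 0.724 and 0.509 in the rpFSH pigs. Here control 2 was the lowest pig and controls 1, 3 and 4 were the highest, and the locus overlapped another locus on the opposite strand (log2 fold change -1.67, SE 0.56). Its call was lost under limma on log2(FPKM + 0.1) (-1.72). KCND3 had a log2 fold change of -0.67, and r with the locus was 0.695 (rho 0.600, 10 pigs). In edgeR with Benjamini-Hochberg adjustment, the adjusted p was 0.853 for both loci.

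MSTRG.30735, the lncRNA locus whose primers are given above, lay 16 bp downstream of CLIC5, a chloride intracellular channel gene, on the opposite strand and over the RefSeq gene CLIC5. It had 3.22, 110.2, 4.67, 1.99 and 6.43 FPKM in the controls and 5.70, 2.12, 2.08, 6.28 and 2.05 in the rpFSH pigs. Control 2 alone was high, and the other pigs of the groups overlapped. The log2 fold change ran from -3.15 to -0.10 when 1 pig was left out, the latter without control 2. The call was also lost without rpFSH pig 2 (-2.71), 3 (-2.70) or 5 (-2.69), under limma with either pseudocount (-2.80) and with the replicate block (-0.89). The log2 fold change was 0.21 without controls 2 and 5 (log2 fold change -2.85, SE 1.16 with all pigs, edgeR, Benjamini-Hochberg adjusted p = 0.853). CLIC5 had 71.3 FPKM in control 2 and between 1.69 and 4.33 in the other pigs, and r with the locus was 0.988 (rho 0.939, 10 pigs).

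Of 63 genes of ovarian function, 6 had a flanking locus, and none of the 7 loci found was DE. The 6 loci of highest mean FPKM are described. MSTRG.32654 lay 101 bp downstream of KIT, the receptor of stem cell factor in oocyte and theca, on the same strand. It had 10.6, 5.42, 11.3, 17.2 and 7.44 FPKM in the controls and 12.7, 6.20, 9.32, 9.44 and 8.22 in the rpFSH pigs. The groups overlapped, and r with KIT was 0.7104 (rho 0.721, 10 pigs). MSTRG.17876, 5204 bp upstream of WT1, a transcription factor of ovarian stroma and granulosa, had 6.13 ± 2.21 FPKM in the controls and 6.41 ± 2.88 in the rpFSH pigs (SD, n = 5 each), and r with WT1 was 0.908 (rho 0.879). For IGF1, r over the 10 pigs was 0.978 with the + strand locus (rho 0.927) and -0.576 with the - strand locus (rho -0.264). With the sum of both loci, which does not depend on the strand, r was 0.785 (rho 0.855). In the 6 pigs with equal FPKM both loci also had equal counts, such as 3265 each in control 1.

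MSTRG.34273 spans 72474 bp and lies 5527 bp upstream of PGR, the progesterone receptor gene that is induced before ovulation. It had 2.52, 2.07, 2.83, 2.81 and 2.84 FPKM in the controls and 2.79, 3.19, 3.94, 2.71 and 4.20 in the rpFSH pigs. The groups overlapped, and the log2 fold change stayed under the fold limit (log2 fold change 0.40, SE 0.15, edgeR, Benjamini-Hochberg adjusted p = 0.853). PGR itself was highest in control 5, at 21.2 FPKM, and was between 2.77 and 6.39 in the other pigs. MSTRG.9938, 201 bp upstream of ADAMTS1, a protease gene of ovulation, had 1.44 ± 0.285 FPKM in the controls and 1.75 ± 0.564 in the rpFSH pigs (SD, n = 5 each), with counts between 20 and 49. ADAMTS1 had a log2 fold change of 0.90, just under the fold limit (SE 0.27, edgeR, Benjamini-Hochberg adjusted p = 0.853).

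Of 114 genes of motile cilia, 2 were paired with a flanking locus, and neither locus was DE with all pigs. The downregulated MSTRG.4097 lay over the RefSeq gene of another of them, DNAI1, but was paired with FAM219A. Of the 100 measured cilia genes, 58 were downregulated and 0 upregulated in edgeR, with the summed level highest in controls 2 and 5 (275 and 415 FPKM, between 69.5 and 92.8 in the other pigs). MSTRG.4434, 1462 bp downstream of ENKUR, a gene of cilia and sperm flagella, had 0.517, 1.53, 0.519, 0.824 and 2.24 FPKM in the controls and 0.626, 0.498, 0.672, 0.697 and 0.587 in the rpFSH pigs. It was high in controls 2 and 5, as was ENKUR, with an r of 0.901 and a rho of 0.321 over 10 pigs. Its log2 fold change of -0.85 reached -1.04 without control 1 and -1.04 without control 3, and the locus passed the rule there. MSTRG.4214, 1853 bp downstream of ARMC4, a gene needed for the outer dynein arms, had 2.86, 0.271, 1.64, 2.07 and 0.982 FPKM in the controls and 2.17, 2.65, 0.836, 0.902 and 0.739 in the rpFSH pigs. Controls 2 and 5 were not high in it, whereas ARMC4, which was downregulated by the rule (log2 fold change -1.77), had 5.02 and 7.53 FPKM there and between 0.292 and 2.56 in the other pigs. The r of MSTRG.4214 with ARMC4 was -0.387 (rho -0.0909, 10 pigs). None of the 14 genes of a list taken from the paper's text had a flanking locus.

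At the limit of the rule, the outermost loci inside were MSTRG.22490, 9807 bp from GLI4, with 2.13 ± 0.547 FPKM in the controls and 2.06 ± 0.291 in the rpFSH pigs (SD, n = 5 each), and MSTRG.4866, 9919 bp from HMGB1, with 0.311 ± 0.436 FPKM in the controls and 0.202 ± 0.320 in the rpFSH pigs (SD, n = 5 each). Just outside, MSTRG.23049, 10080 bp from ZNF704, was at the floor in all pigs. MSTRG.6610, 10085 bp from UTP6, had 1.05 ± 0.342 FPKM in the controls and 1.25 ± 0.670 in the rpFSH pigs (SD, n = 5 each).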

How the data were processed

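The study's methods describe removal of rRNA and dUTP marking of the second strand, while the sample labels describe poly(A) selection, and this was not settled here. The authors trimmed the reads, mapped them to Sscrofa11.1 and assembled them, and the submitters' processing notes name Bowtie 0.12.2, HISAT2 2.0 and StringTie 1.3.0. The deposited FPKM were estimated by the authors with StringTie and Ballgown, scaled to length and library size, with 0.0001 as the lowest value. The deposited counts are whole numbers per locus, and how the authors made them, and whether by strand, is not given in the sources used here.

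From these, edgeR 4.0.16 (TMM, robust quasi-likelihood test, in R 4.3.3) was fitted to the counts of all loci with a mean count of at least 10 over the 10 pigs, and P was adjusted by Benjamini-Hochberg over all 35720 of them. Alternatives were DESeq2 1.42.0, limma 3.58.1 on log2(FPKM + 1) or log2(FPKM + 0.1) with the fold taken from group mean FPKM, RLE and upper-quartile factors, no filter, a mean count of at least 50, the replicate number as a block, leaving out each pig or controls 2 and 5, a window of 5 kb and a stricter coding set. The tests were tried on simulated counts. Positions and correlations were computed with Python 3.11.15 (numpy 2.4.6, pandas 2.3.3, scipy 1.17.1). Counted length is the ratio of count to FPKM, scaled to its most frequent ratio to the span.

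Loci named were the 6 with the smallest P in each direction among DE loci with a mean count of at least 20, the 2 of highest mean FPKM per position, those beside genes of the lists (DE ones and up to 6 each), the lncRNA loci of the study, and the 2 nearest the limit on either side. Another 8 were named after their values were seen. One locus that this rule names is not reported here. The members and lists were chosen with earlier results of these data known. The restriction to loci that overlap no other locus was chosen after seeing the data.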

Additional observations from a re-analysis of the deposited data

Results flagged for a closer look

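In 8 of 72 groups of 5 pigs, 1 pig lay far from the other pigs of its group (Dixon's ratio above 0.71 on log2(FPKM + 1)), and chance alone gives about 1 in 20 independent groups. Here the groups share the same 10 pigs and some loci were named for their values, so this rate cannot be set against the 8 groups. For MSTRG.30735 beside CLIC5, control 2 had 110.2 FPKM and the next control 6.43. For MSTRG.24924, control 5 had 0.548 FPKM and the next control 0.0800, while rpFSH pig 1 had 0.0001 and the next rpFSH pig 1.46. For MSTRG.4097 beside FAM219A, rpFSH pig 2 had 0.0538 FPKM, with the other rpFSH pigs at the floor, so the ratio is 1 for any value above the floor and this group carries no information. For MSTRG.25934 beside IGF1, control 5 had 0.0001 FPKM and the next control 3.16, in a pig where the locus of the same coordinates on the + strand had 11.0. For MSTRG.4866 beside HMGB1, rpFSH pig 2 had 0.771 FPKM and the next rpFSH pig 0.109. For MSTRG.23218 beside ARMC1, control 4 had 2.25 FPKM and the next control 1.86. For MSTRG.19008 beside SV2C, rpFSH pig 3 had 0.226 FPKM and the next rpFSH pig 1.15.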

How the results depend on the processing

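The counts of DE loci depended on the pigs and on the test. The 5 upregulated and 27 downregulated loci became 8 and 8 with limma with either pseudocount, and 14 and 5 without controls 2 and 5. Under limma, 0.675% of all tested loci were upregulated and 1.13% downregulated with log2(FPKM + 1), and 0.806% and 1.32% with log2(FPKM + 0.1), beside 1.06% each way for the flanking loci. With 1 pig left out the counts of flanking loci ran from 3 to 12 upregulated and from 12 to 30 downregulated. As shares these were 0.399% to 1.60% and 1.60% to 3.99% of the tested flanking loci. Over the same fits, between 0.868% and 1.43% of all tested loci were upregulated and between 1.71% and 2.92% downregulated. With a replicate block, 7 were upregulated and 10 downregulated (0.931% and 1.33%), beside 0.826% and 1.22% of all tested loci. The pigs share only a number: same-numbered pigs had a mean correlation of deviations of -0.0990, and 0 of 10 pigs correlated best with their own number. DESeq2 gave 4 loci with an adjusted p under 0.05, and the other alternatives 0. The share of all tested loci past that limit in DESeq2 is not given here, so these 4 cannot be set against it. The share downstream on the same strand was 40.0% among loci that overlap no other locus, an alternative chosen after seeing the data. With 1 pig left out, the share of pairs with the same sign ran from 62.4% to 66.5% and the median r from 0.463 to 0.516. The cause was not tested. A count of 0 in 5 or more pigs was found in 39 loci, and the parts of depth and of strand assignment in this were not tested.

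Without controls 2 and 5, the log2 fold change turned to 0.42 for MSTRG.17798, 0.19 for MSTRG.2337, 0.27 for MSTRG.4097, 0.21 for MSTRG.30735, 0.055 for MSTRG.4434, -0.36 for MSTRG.23788, 0.023 for MSTRG.22490 and 1.76 for MSTRG.4866. Under limma, with either pseudocount, it was -0.0038 for MSTRG.23788 and -0.00013 for MSTRG.24956, and with the replicate block 0.013 for MSTRG.22490. With 1 pig left out, the sign also changed for loci that were not DE, with log2 fold changes from -0.21 to 0.33 for MSTRG.23788, from -0.029 to 0.080 for MSTRG.24956, from -0.29 to 0.11 for MSTRG.32654, from -0.20 to 0.33 for MSTRG.17876, from -0.16 to 0.80 for MSTRG.25933, from -0.37 to 0.31 for MSTRG.4214, from -0.087 to 0.098 for MSTRG.22490 and from -2.35 to 0.79 for MSTRG.4866. The cause was not tested. MSTRG.16732 and MSTRG.27522 passed under all 19 alternatives. Of 677 comparisons of a named locus with an alternative, 582 kept the direction and the side of the DE rule, 60 lost the call, 2 gained it and 33 changed sign.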
